A study of Mus musculus with 48 samples.

Results

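The distal block of mouse chromosome 5 held 1395 of the 114043 merged ATAC-seq peaks of this series, namely those that start at or beyond 130 Mb on build mm9. Chromosome 5 carried 6710 merged peaks in all, so 5315 lay proximal to the block, towards the centromere. The block was picked because its peaks were shifted up in one comparison and down in the other. The log2 fold changes of both comparisons are therefore given as a description of these peaks, with no test, and no such shift is taken as evidence of its own.

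ATAC-seq measures open chromatin by the insertion of adapters by the Tn5 transposase. The tissues came from mice with tumors of the small cell lung cancer type, started in the lung by an adenovirus that carries Cre recombinase. All groups shared the genotype Trp53-/-;Rb1-/-;p130-/-;R26mG, which means loss of 3 tumor suppressors and a GFP reporter at the Rosa26 locus. The CGRP comparison set 7 liver metastases against 11 lung tumors, both started with Ad-CGRP-Cre, in which the promoter of a neuroendocrine peptide drives Cre. The CMV comparison set 8 Nfib-amplified libraries against 7 libraries without the amplification, all started with Ad-CMV-Cre, in which a broadly active viral promoter drives Cre. Nfib encodes a transcription factor and lies on another chromosome than this block. The amplified group mixed 5 liver metastases, 1 lymph node metastasis and 2 lung tumors, whereas all 7 others were lung tumors, so amplification and tissue cannot be told apart. All 7 liver metastases of the CGRP comparison came from preparation batch 2, while its lung tumors came from batch 2 (7 libraries) and batch 3 (4 libraries). Among those lung tumors, 1 was labelled as Nfib-amplified. The labels of 1 library without amplification do not tie it to the CMV table, so it may be absent from the authors' fit. A further 15 Ad-CMV-Cre libraries of low enrichment entered no comparison but are part of the CMV pool of summits described below. No source used here gives the age of the animals, and the labels do not say which libraries share an animal, so the errors below may in part be technical.

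A stretch of a chromosome can move as a unit in ATAC-seq, because the reads over a site depend both on how many copies of the DNA a cell holds and on how open each copy is. In bulk tissue, more copies of a stretch, wider opening of it, and a larger share of cells that carry either cannot be told apart from these values. In the RefSeq annotation of GRCm38.p6, the distal part of mouse chromosome 5 carries, in order towards the telomere, Cux1 (a homeobox transcription factor), Actb (beta-actin), Rac1 (a small GTPase of the cytoskeleton), Cyp3a11 (a liver cytochrome P450), Flt1 (a receptor of vascular endothelial growth factor), Brca2 (homologous recombination) and Kl (klotho). That annotation is of another build than the peaks, so no peak was placed at a gene, and hepatocyte, lung, blood or neuroendocrine markers could not be read for the tissues compared. Values per library were not analysed here: each value below is the authors' estimate over a whole comparison, and library depth is unknown.

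Strength of signal was similar to that elsewhere. The mean normalised count, which the authors averaged over libraries, had a median of 24.5 in the block (quartiles 13.7 and 55.9), against 21.0 on the rest of chromosome 5 (11.1 and 45.8). A mean count of 50 or more was reached by 384 block peaks (27.5%) and by 1236 peaks of the rest (23.3%). These stronger peaks, whose fold changes are the most precise, carry most of the values that follow; the other 1011 members are described by their strength further on. Every member had a log2 fold change in both comparisons, 1394 had a p in each, and 1348 had an adjusted p in the CGRP comparison.

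In liver metastases of the CGRP model the stronger peaks of the block had more ATAC-seq signal than in lung tumors. Their median log2 fold change was 0.34 (quartiles 0.19 and 0.47), a 1.26-fold difference, while the median on the rest of chromosome 5 was -0.06 (quartiles -0.25 and 0.14). The median SE of a single block peak was 0.20, so the shift is only 1 to 2 times the error of a peak and shows through the agreement of many peaks. Of the 384, 350 (91.1%) lay above 0, against 521 of 1236 (42.2%) on the rest of the chromosome and 46.7% of all 26447 peaks of that strength. Peaks of one stretch share libraries and DNA and are no replicates of the comparison.

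With the 12 called peaks taken out, the median of the other 372 was 0.33 and 90.9% of them were above 0. Removing 12 of 384 peaks can hardly move a median, and the block was chosen on this shift. Nothing is read from these values. The deposited 95% interval of a peak (from its log2 fold change and SE) left out the block's own median for 20 of 384 peaks (5.21%), of which 5 were above it and 15 below. On the rest of chromosome 5, the same count around its own median was 151 of 1236 (12.2%). With a median SE of 0.20 such an interval is wider than the steps within the block described below, so these shares do not show a single common value.

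In the CMV model the same stretch was lower in the Nfib-amplified libraries. For the 384 stronger peaks the log2 fold change had its median at -0.61 and its quartiles at -0.88 and -0.20, so the median peak stood at 0.656 times the level without amplification. The rest of chromosome 5 had a median of -0.18 (quartiles -0.59 and 0.43). Below 0 lay 317 of the 384 peaks (82.6%), against 747 of 1236 (60.4%) on the rest and 47.3% of all peaks of that strength. Here 35.2% of the 384 peaks had an interval that left out the block median, 83 above it and 52 below, against 51.1% of 1236 around the median of the rest. The 143 peaks that were not called had a median of -0.19, and without called peaks the block differed from the rest by -0.065. Calls were made on this same change, 221 of them lowered, so what is left after removing them lies near 0 by construction.

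**Figure D1:**
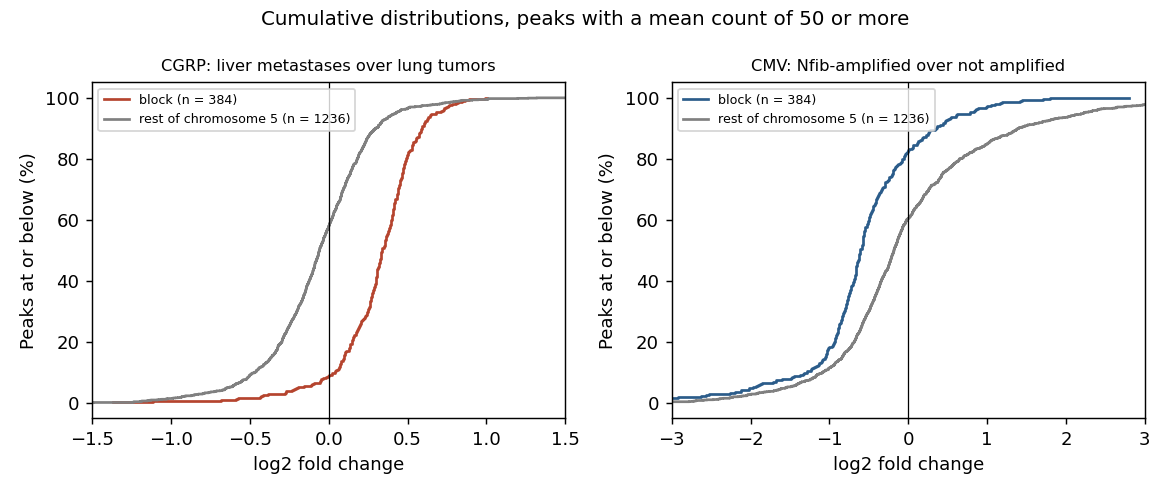
Share of peaks (y axis, percent) at or below each log2 fold change (x axis) for the block (n = 384, colored) and the rest of chromosome 5 (n = 1236, grey), mean count of 50 or more. The CGRP curve of the block is moved to the right as a whole (median 0.34 against -0.06), and its CMV curve is moved to the left, more so at the upper quartile (-0.20 against 0.43) than at the median (-0.61 against -0.18) or the lower quartile (-0.88 against -0.59).

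Both comparisons were also read peak by peak. Among the 384, 290 (75.5%) were above 0 in the CGRP comparison and below 0 in the CMV comparison, against 293 of 1236 (23.7%) on the rest of chromosome 5 and 19.7% of all peaks of that strength. The product of the share above 0 and the share below 0 gives 289 of 384, so the count follows from the choice of the block on both shifts and shows no tie between them. Within the block, peaks with a larger CGRP change did not have a lower CMV change: across these 384 peaks Pearson's r was 0.29 and Spearman's rho 0.11, both positive. On other chromosomes r was 0.20 and rho 0.20 (n = 24827), so the block was higher by r and lower by rho. Over the 21 windows of 1 Mb with at least 5 such peaks, the medians of the comparisons had r = -0.10 and rho = 0.01. The comparisons use different libraries but one set of peaks and one mean count, and neighboring peaks are not independent, so these coefficients are descriptions.

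Along the block, the CGRP shift grew in its first megabases and then stayed level. All 21 windows with at least 5 of the stronger peaks had a positive median, from 0.13 in the window starting at 130 Mb (27 peaks) to 0.49 in that starting at 148 Mb (13 peaks). The window starting at 131 Mb, with only 3 such peaks, had -0.35. Beginning at 133 Mb, 13 adjacent windows all had medians of 0.2 or more. Among the highest of these were the windows from 140 Mb (0.45, 12 of 12 peaks above 0), from 138 Mb (0.44, 22 of 22) and from 143 Mb (0.44, 14 of 15). In the window from 151 Mb, close to the end of the mapped peaks, the median was 0.45 (20 of 23 peaks above 0).

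The CMV shift took another course over the same windows. Medians were negative in 20 of the 21 windows and lowest in those from 143 Mb (-0.85, 12 of 15 peaks below 0) and 145 Mb (-0.85, 24 of 27). In the window that begins 5 Mb into the block all 25 peaks were below 0 (median -0.77). Near the start of the block, the window from 133 Mb was the one above 0 (median 0.21, 3 of 6 below 0). Towards the telomere the shift shrank, to -0.10 in the window from 150 Mb (9 of 16 below 0) and -0.21 in that from 151 Mb (14 of 23), where the CGRP medians were 0.31 and 0.45.

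**Figure D2:**
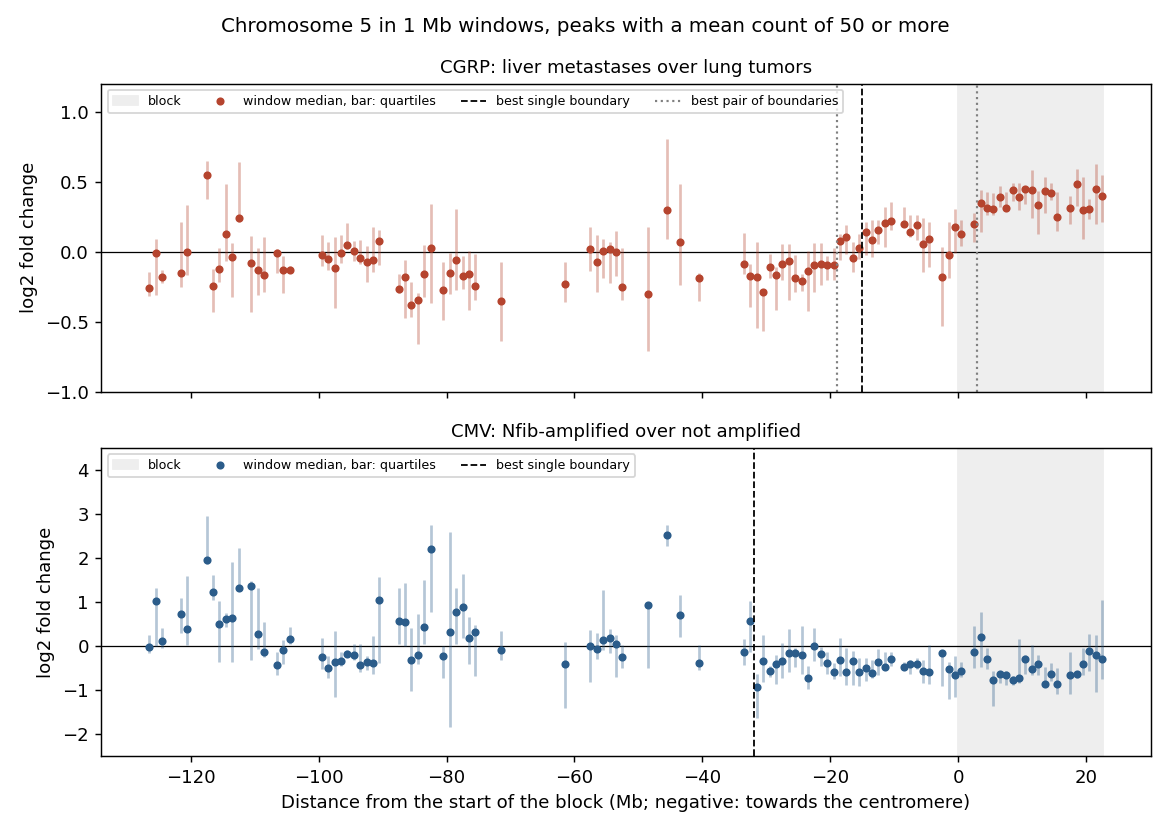
Median log2 fold change (y axis) in 1 Mb windows of chromosome 5 with at least 5 peaks of mean count 50 or more, bars giving the quartiles, against the distance from the start of the block in Mb (x axis, block shaded). CGRP medians rise from the stretch before the block into it and are positive in all 21 block windows. CMV medians are already below 0 over the stretch before the block. Dashed and dotted lines mark the best single boundary and, for CGRP, the best pair of boundaries.

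The edge of the shift depended on the comparison, the peaks used and the way of searching. A boundary was moved along chromosome 5 in 1 Mb steps, and the place was sought where the absolute deviations from the median of each side were smallest. For the CGRP comparison this was 115 Mb, with a median of 0.27 distal to it (596 peaks) and -0.09 proximal to it (1024 peaks). Boundaries from 114 to 118 Mb came within 0.5% of that minimum. A boundary at 130 Mb gave deviations 1.23% above it, and no boundary 20%. The place depended on the peaks used: with no minimum of the mean count the best boundary lay 1 Mb distal to 130 Mb, and with a minimum of 20, or with squared deviations, 2 Mb distal to it. For the CMV comparison the best boundary was 98 Mb, with a median of -0.53 distal to it (848 peaks) and 0.05 proximal to it (772 peaks). That minimum was shallow: boundaries from 87 to 110 Mb came within 0.5% of it, and no boundary was 7.21% above it. With both comparisons scaled by their spread and searched jointly, the boundary was 114 Mb.

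Those boundaries do not coincide, and the CGRP values were also split by a pair of boundaries. A second boundary lowers the deviations by construction, so this split does not show that there are 2 steps. With 2 boundaries, an alternative chosen after the profile was seen, the CGRP medians were 0.37 distal to 133 Mb (344 peaks), 0.12 between 111 and 133 Mb (312 peaks) and -0.10 proximal to 111 Mb (964 peaks). In bands of 4 Mb the CGRP median was -0.06 from 110 Mb (65 peaks), 0.12 from 114 Mb (74 peaks), 0.24 from 118 Mb (27 peaks), 0.13 from 122 Mb (106 peaks) and 0.12 from 126 Mb (27 peaks). Within the block it was 0.14 from 130 Mb (46 peaks), then 0.33 from 134 Mb (75 peaks), 0.41 from 138 Mb (79 peaks), 0.38 from 142 Mb (72 peaks), 0.34 from 146 Mb (66 peaks) and 0.35 from 150 Mb (46 peaks). The CMV median of these bands stayed between -0.48 and -0.67 from 110 to 150 Mb and was -0.20 from 150 Mb on. The threshold of 130 Mb thus falls within a stretch of low positive CGRP band medians. It also falls within a long run of negative CMV band medians that began far before it. For the CMV comparison, the 2 boundaries (82 and 86 Mb) only cut out 14 peaks with a median of 2.97 and marked no step near the block.

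The threshold had mixed CGRP values on both sides. Just inside it, the peak from 130039584 to 130040084 had a CGRP log2 fold change of -1.37 (SE 0.57) in the authors' deposited table. Next inside, from 130089673, came a peak at 0.15 (SE 0.14), and from 130221155 one at 0.02 (SE 0.17), per the authors' deposited table. Just outside, the peak from 129961074 had 0.22 (SE 0.12), that from 129915539 had 0.00 (SE 0.28) and that from 129805120 had -1.03 (SE 0.63) in the authors' deposited table. The authors' deposited table gave CMV values of -4.06 (SE 0.66), -0.67 (SE 0.17) and -0.84 (SE 0.20) for the 3 inner peaks, and of -1.09 (SE 0.16), 0.61 (SE 0.32) and -1.70 (SE 0.68) for the 3 outer ones. CGRP signs were mixed on both sides, while the CMV values were negative for all 3 inner peaks and for 2 of the 3 outer ones.

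Strength of the peak hardly changed the CGRP shift. From the weakest to the strongest of 6 classes of mean count, the median CGRP log2 fold change of the block was 0.47 (under 10, 210 peaks), 0.40 (10 to 20, 356 peaks), 0.28 (20 to 50, 445 peaks), 0.36 (50 to 100, 212 peaks), 0.32 (100 to 200, 137 peaks) and 0.36 (200 or more, 35 peaks). Set against the same class on the rest of chromosome 5, the block was higher by 0.33 to 0.47 in each of the 6 classes. All 35 of the strongest peaks lay above 0, against 37 of 161 on the rest of the chromosome. Scatter shrank with strength: the quartiles were 0.02 and 0.91 under a mean count of 10, and 0.26 and 0.42 at 200 or more.

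For the CMV comparison, the classes differed more. Block medians ran from -0.19 under a mean count of 10 and -0.05 at 10 to 20, through -0.29 at 20 to 50, to -0.55 at 50 to 100, -0.67 at 100 to 200 and -0.66 at 200 or more. Relative to the same class on the rest of chromosome 5, the block was lower by 1.04 under 10 (block minus rest -1.04), by 0.83 at 10 to 20 (-0.83), by 0.55 at 20 to 50 (-0.55), and by 0.39 to 0.48 in the 3 strongest classes (-0.39, -0.46 and -0.48). Over all peaks of the series the CMV median was 0.60, but it was 1.10 under a mean count of 10 and 0.06 at 50 or more. A weak block peak near 0 thus stood below the series median of its strength, whereas a strong block peak near 0 would stand close to it. The median of the block at a mean count of 50 or more was -0.61, well below the 0.06 of the series.

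**Figure D3:**
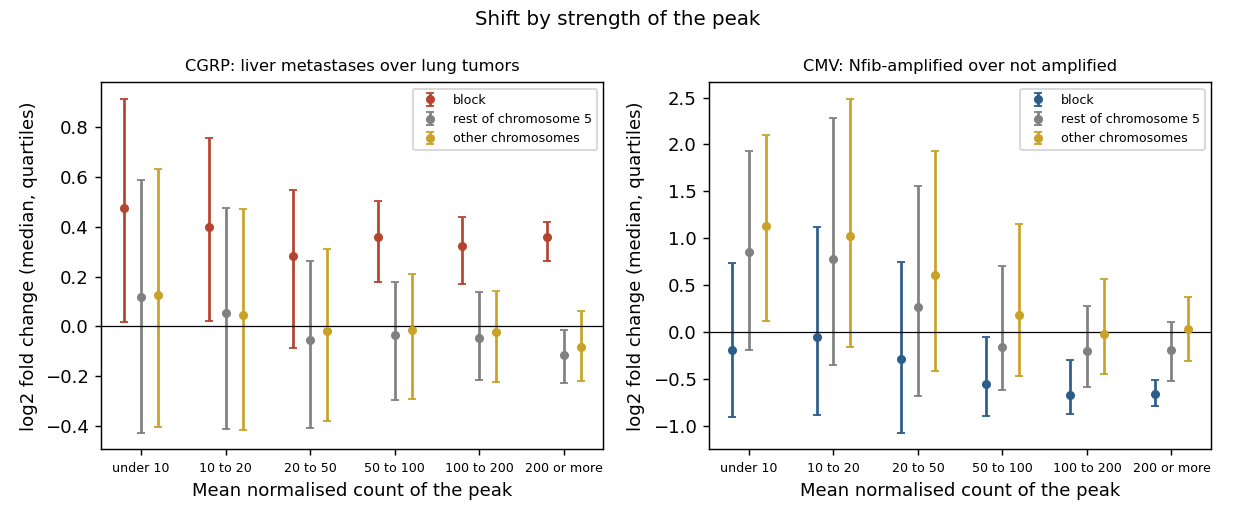
Median log2 fold change (y axis, bars giving the quartiles) by class of mean normalised count (x axis) for the block, the rest of chromosome 5 and the other chromosomes. The block lies above the rest by 0.33 to 0.47 in every CGRP class, while its CMV distance from the rest is widest among weak peaks.

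Peaks were also classed by the pools of libraries in which they were found. The authors called summits on 3 pools of libraries, and a merged peak was said to hold a pool's summit within 250 bp of its centre. By preparation batch, the CMV pool held all 15 libraries of low enrichment and only 2 from each group of the CMV comparison. The mixed pool held 6 libraries with the Nfib amplification, 5 without it and 4 lung tumors of the CGRP comparison. The CGRP pool held 7 liver metastases and 7 lung tumors. In the block 1066 of 1395 peaks (76.4%) held a summit of all 3 pools, against 3495 of 5315 (65.8%) on the rest of chromosome 5. A CMV-pool summit without a CGRP-pool summit was held by 115 block peaks (8.24%), against 1134 (21.3%) of the rest. The reverse, a CGRP-pool summit alone of these, was held by 171 block peaks (12.3%) and 527 of the rest (9.92%).

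In the CGRP comparison the median of the block exceeded that of the rest in each of these classes, by 0.37 for peaks of all 3 pools (0.36 against -0.00), by 0.24 for those with a CMV but no CGRP summit (0.24 against -0.00) and by 0.29 for those with a CGRP but no CMV summit (0.11 against -0.18). In the CMV comparison peaks of all 3 pools had -0.40 in the block against 0.05 on the rest, a difference of -0.45. Peaks with a CMV but no CGRP summit had 2.43 in the block and 2.37 on the rest, a difference of 0.058. Those with a CGRP but no CMV summit had -1.21 and -1.05, a difference of -0.16. These medians take in peaks of any mean count. In the block, 377 of the 1066 peaks of all 3 pools reached a mean count of 50. Only 2 of the 115 with a CMV but no CGRP summit did so, and 2 of the 171 with the reverse. Median mean counts of these block classes were 33.7, 13.8 and 12.4, so class and strength are mixed. The pools contain libraries of the comparisons, so the level of each class is partly set by the way it was formed; the block and the rest were classed alike.

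Individual calls in the CGRP comparison were few. At the authors' adjusted p under 0.05, 20 of 1348 block peaks with an adjusted p (1.48%) were raised in liver metastases, against 0.0752% of all peaks tested, and 3 (0.223%) were lowered, against 0.779% of all peaks tested. On the rest of chromosome 5, 4 of 4910 peaks were raised and 38 were lowered. Since the block was chosen on this contrast, nothing further is read from these shares. The most proximal of the 20 raised peaks began at 136150666, all 20 held a summit of all 3 pools, and their log2 fold changes ran from 0.48 to 2.36. The authors' second test asks for a change beyond 0.5 on the log2 scale. By it, no block peak was raised, against 0.00% of all peaks tested. Lowered was 1 of 1394 block peaks (0.0717%), against 0.0580% of all peaks tested. Among the 384 stronger peaks 12 (3.12%) were raised, against 0.125% of all peaks of that strength, and none was lowered, against 1.06%.

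The raised peaks are given by strength. A weaker peak, with a larger SE, can be called only with a larger change, so the sizes within each class are partly set by the call. The 12 with a mean count of 50 or more had changes from 0.48 to 0.76. Among them, the peak from 141124853 to 141125353 had the lowest adjusted p of the 20: there the authors' deposited table has 0.63 (SE 0.12, adjusted p = 0.000391). Close together lay peaks with 0.49 (SE 0.12) from 139676279, 0.61 (SE 0.15) from 139820946 and 0.49 (SE 0.13) from 139856251 in the authors' deposited table, within a window that held 5 of the 20 and, with 93, the most merged peaks of any in the block. Per the authors' deposited table, peaks from 138125803, 139063832 and 149364137 had 0.48 (SE 0.13), 0.49 (SE 0.12) and 0.48 (SE 0.12). Also among the 12 were the peaks from 140797235 at 0.56 (SE 0.14), from 143177627 at 0.76 (SE 0.19), from 145725814 at 0.73 (SE 0.19), from 148671900 at 0.54 (SE 0.15) and from 151324973 at 0.68 (SE 0.18), all taken from the authors' deposited table. All 12 lay above the upper quartile of the block (0.47). In the CMV comparison 11 of the 12 were below 0 and 10 were called lowered.

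The other 8 raised peaks had mean counts under 50 and changes from 0.72 to 2.36. The largest change was at the peak from 152021256 to 152021756, for which the authors' deposited table gives 2.36 (SE 0.64, adjusted p = 0.0315) at a mean count of 16.5. The authors' deposited table had 1.54 (SE 0.36) from 150823372, 1.51 (SE 0.42) from 141856649, 1.45 (SE 0.35) from 151696899 and 1.25 (SE 0.35) from 144445802. Smaller changes came from 139232273 at 0.85 (SE 0.23), 136150666 at 0.79 (SE 0.22) and 137951475 at 0.72 (SE 0.21), per the authors' deposited table. Only 3 of these 8 were below 0 in the CMV comparison and 2 were called lowered there, from 136150666 with -1.41 (SE 0.30) and from 137951475 with -1.14 (SE 0.27) in the authors' deposited table. A further 2 were called raised in both comparisons, from 144445802 with a CMV value of 1.49 (SE 0.40) and from 139232273 with 0.66 (SE 0.26) in the authors' deposited table.

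The 3 lowered peaks stood far from the rest of the block. At the peak from 147100986 to 147101486 the authors' deposited table has -3.68 (SE 0.56, adjusted p = 3.216e-07) for CGRP and -4.85 (SE 0.66, adjusted p = 1.025e-10) for CMV. It was the one member lowered in both. From 140322694 the authors' deposited table had -2.71 (SE 0.63) and from 135020408 it had -2.32 (SE 0.59), with CMV values of -0.35 (SE 0.67) and -0.53 (SE 0.63) that were not called. Mean counts of these 3 were 21.5, 20.3 and 37.0.

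**Figure D4:**
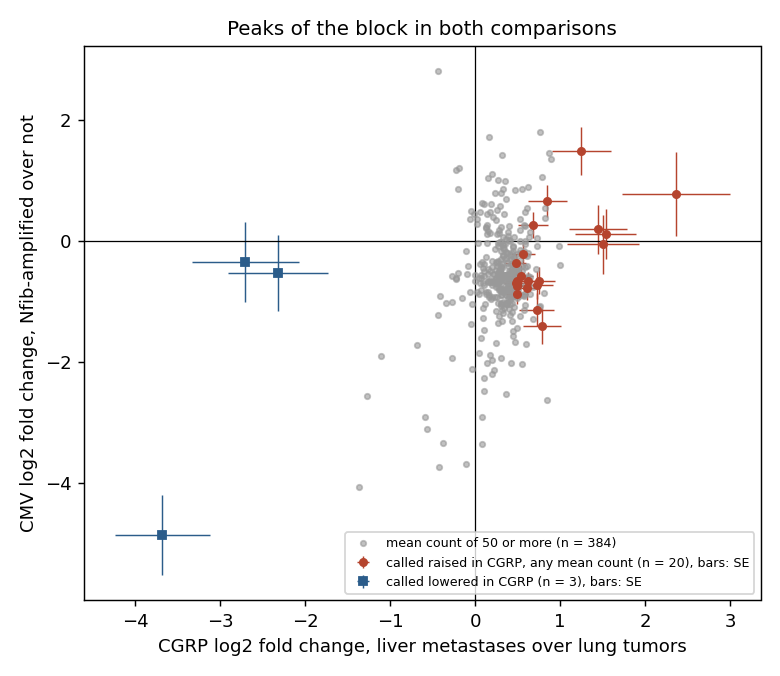
CGRP (x axis) against CMV (y axis) log2 fold change of block peaks, grey for the 384 with a mean count of 50 or more, red for the 20 called raised and blue for the 3 called lowered in the CGRP comparison, with bars of 1 SE. Most points lie right of 0 and below 0 (290 of the 384), and 1 lowered peak lies far down in both comparisons.

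In the CMV comparison the block held many calls in both directions. Lowered in Nfib-amplified libraries were 430 of 1394 peaks (30.8%), against 12.2% of all peaks tested, and 195 (14%) were raised, against 34.3%. On the rest of chromosome 5, 855 of 5301 (16.1%) were lowered and 1465 (27.6%) were raised. Among the 384 stronger block peaks, 221 (57.6%) were lowered and 20 (5.21%) were raised, against 21.2% and 29.3% of all peaks of that strength. The second deposited test kept 150 lowered block peaks (10.8%, against 4.64% of all peaks) and 90 raised ones (6.46%, against 19.0%). As this contrast also served to choose the block, the shares are descriptions.

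The largest CMV losses among the stronger peaks lay towards both ends of the block. The authors' deposited table had -4.06 (SE 0.66, adjusted p = 5.386e-08) from 130039584 to 130040084 and -3.34 (SE 0.61) from 130683000. Near the distal end, it was -3.73 (SE 0.54) from 151135753, -3.69 (SE 0.60) from 151414246 and -3.35 (SE 0.48) from 149782621 in the authors' deposited table. None of these 5 was called in the CGRP comparison, where the authors' deposited table had values from -1.37 (SE 0.57) to 0.08 (SE 0.41). The 95% intervals of the CGRP values took in the block median of 0.34 for all of these 5 except that from 130039584.

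The largest CMV gains went against the direction of the block. For the peak from 133963708 to 133964208 the authors' deposited table has 2.80 (SE 0.76, adjusted p = 0.00124). Within the last megabase, the authors' deposited table gave 1.80 (SE 0.39) from 152098782 and 1.71 (SE 0.33, adjusted p = 6.648e-06) from 152196736. Then followed 1.44 (SE 0.45) from 130807078 and 1.42 (SE 0.26) from 139509723 in the authors' deposited table. CGRP values of these 5 ran from -0.44 (SE 0.73) to 0.87 (SE 0.39) in the authors' deposited table, and none was called.

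The 3 block peaks with the highest mean counts were above 0 in the CGRP comparison but below the block median of 0.34, and below 0 in the CMV comparison. As CGRP values of the authors' deposited table, the peak from 152171053 to 152171553 (mean count 474) had 0.21 (SE 0.13), that from 138069892 (448) had 0.28 (SE 0.13) and that from 130620474 (431) had 0.18 (SE 0.08). None of these was called, with adjusted p-values of 0.626, 0.422 and 0.427 in the authors' deposited table. Their CMV values in the authors' deposited table were -0.55 (SE 0.15), -0.81 (SE 0.15) and -0.50 (SE 0.10), and all 3 were called lowered.

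Set among the windows of the whole series, the block supplied many of the high CGRP medians. Of 1596 windows with at least 5 of the stronger peaks, 46 had a CGRP median of 0.3 or more, and 17 of these were among the 21 of the block. Outside the block 1.84% of windows reached that value. The longest runs of adjacent windows at 0.3 or more were 12 windows in the block from 133 Mb and 4 windows on chromosome 6 from 94 Mb. At a CMV median of -0.5 or lower stood 121 windows, 12 of them in the block, and 6.92% of windows outside it. The longest such runs were 5 windows, in the block from 5 Mb after its start and on chromosome 10 from 79 Mb.

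Other chromosome ends of the same length had lower medians in the CGRP comparison. Over the last stretch of 18 other chromosomes, the median CGRP log2 fold change of the stronger peaks ran from -0.15 to 0.26, against 0.34 for the block. Nearest to it were chromosome 9 (0.26, 380 peaks) and chromosome 4 (0.24, 101 peaks). The CMV medians of the other ends ran from -0.40 (chromosome 11, 457 peaks) to 0.52, against -0.61 for the block. Set against the rest of its own chromosome the block did not stand alone: its CGRP median was 0.39 higher, against 0.44 for the end of chromosome 4, and its CMV difference was -0.43, against -0.70 for the end of chromosome 12. These stretches are set side by side with no test.

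The density of sites in the block depended on the pool. The block spans 22.5 Mb and had 61.9 merged peaks per Mb, against 41.9 on the rest of chromosome 5. That rest includes stretches of 6306, 4616 and 4306 kb without merged peaks, each with 247 or more summits of every pool. Its merged density is lowered by them. Summits of the CGRP pool (14 libraries) lay at 98.5 per Mb in the block and 61.4 per Mb on the rest, a ratio of 1.60. The mixed pool (15 libraries) had 98.5 and 72.7 per Mb, a ratio of 1.35. The CMV pool (19 libraries) had 91.4 and 91.1 per Mb, a ratio of 1.00. Of those 19 libraries, 15 were of low enrichment, so this ratio does not stand for the CMV comparison. Of the 22 full windows of the block, 15 held more CGRP-pool than CMV-pool summits, against 39 of 112 windows (34.8%) on the rest. A majority of the windows just before the block did so too, with 24 of 32 from 98 to 130 Mb. Each pool is 1 list, so these densities have no replicate, and each pool is also a preparation batch of its own.

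**Figure D5:**
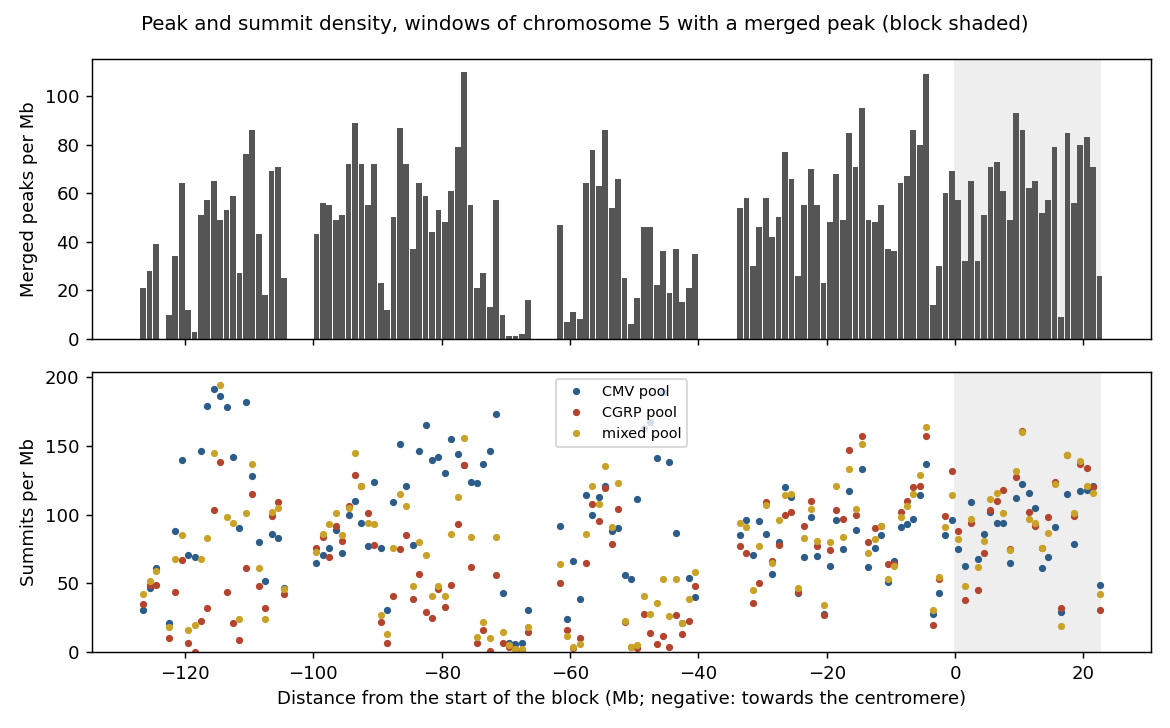
Merged peaks per Mb (upper y axis) and summits per Mb of the CMV, CGRP and mixed pools (lower y axis) in 1 Mb windows of chromosome 5 that hold a merged peak, against the distance from the start of the block in Mb (x axis, block shaded). In the block the pools run close together (91.4 to 98.5 summits per Mb), while on the proximal part the CMV pool lies above the CGRP pool in most windows.

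Scores were compared by rank. Ranked within its own list, the median summit of the block stood at percentile 60.4 of the CMV pool, against 48.8 for the rest of chromosome 5. In the CGRP pool the percentiles were 53.1 and 49.3, and in the mixed pool 51.9 and 48.7. CMV-pool summits of the block lay within 250 bp of the centre of a merged peak in 61.4% of cases, against 42.9% on the rest. For the CGRP pool these shares were 57.9% and 53.7%. CMV-pool summits per merged peak numbered 1.48 in the block and 2.18 on the rest. Summits in the long stretches of the rest without merged peaks count here, which lowers its shares near a merged peak and raises its summits per merged peak.

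The block had no long stretch devoid of merged peaks. Its widest gap ran from 146473982 to 146913316, 439 kb with 6 CMV-pool, 5 CGRP-pool and 2 mixed-pool summits. On the rest of chromosome 5 the widest ran from 89972978 to 96278875, 6306 kb with 293 CMV-pool, 286 CGRP-pool and 325 mixed-pool summits. Merged peaks per window of the block ranged from 9 in the window from 146 Mb to 93 in that from 139 Mb. The window from 146 Mb held only 1 peak of mean count 50 or more, with a CGRP value of 0.10 and a CMV value of -0.58.

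Adjacent members were only loosely alike in their changes. Neighbors among the 384 stronger peaks lay a median of 28.5 kb apart. Their CGRP log2 fold changes had a Pearson's r of 0.23 over 383 pairs, with a median absolute difference of 0.17, against r = 0.17 and 0.23 on the rest (1235 pairs). For the CMV comparison r was 0.06 with a median difference of 0.47 in the block, against 0.31 and 0.63 on the rest. Neighbors share libraries and local sequence, so these coefficients describe the stretch and test nothing.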

How the data were processed

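Libraries of all 48 samples were made by Tn5 insertion into lysed cells, per the labels' protocols. The submitters' processing notes list mm9 and the tools Bowtie2, MACS2 and DESeq2, with neither role nor version. Not given in the sources used here are removal of duplicates and any offset of reads to the Tn5 cut. The authors deposited summits of 3 library pools, a merged list of 501 bp peaks and 2 comparison tables. Deposited scores of summits and peaks were taken as −log10 q-values. Per the file headers, the deposited comparison tables hold a mean normalised count (a signal averaged by the authors), log2 fold changes with SEs, a test statistic of unnamed type, p-values and adjusted p-values in the column names of DESeq2 results. Directions rest on the table names. With 0 columns for single libraries, no count model was fitted and depth is unknown.

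Members were peaks of chromosome 5 starting at or beyond 130 Mb, joined by name. The members and lists were chosen with earlier results of these data known. A call is the authors' adjusted p under 0.05 over all peaks; those without one were left out of its counts. Medians, quartiles, 1 Mb windows and boundaries (from 10 Mb to 10 Mb before the last peak) were computed here, and windows needed 5 peaks with a mean count of 50 or more. Named sites are all members called in the CGRP comparison, the 5 raised and 5 lowered CMV calls of mean count 50 or more with the largest change, the 3 highest mean counts, members called in both, and the 3 peaks on each side of the threshold. The boundary search was tried on simulated data with a single step and noise from the SEs alone. The CGRP profile was better described by a pair of steps, so that trial does not show how well the edges above were placed. Alternatives covered the mean count minimum, the start of the block, thresholds, centring, summit score and the boundary search. No mm9 annotation or genome was used here, so genes, marker lists and sequences are not analysed here. Values were computed in Python 3.11.15 (pandas 2.3.3, numpy 2.4.6, scipy 1.17.1) and drawn with matplotlib 3.10.9. Coordinates are 1-based.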

Additional observations from a re-analysis of the deposited data

How the results depend on the processing

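The direction of both shifts held under every alternative run, while their size and the edge did not. Since the block was chosen for these directions, their staying the same is no support for them. A block begun 5 Mb further on had a CGRP median of 0.37. The CGRP shift over the rest of chromosome 5 (0.39) was 0.35 with no mean count minimum and 0.37 against other chromosomes, the last chosen after the data were seen. The share of peaks above 0 was 78.8% with no minimum, 80.3% from a mean count of 20 and 95.9% from 100. The CMV median was -0.38 with no minimum, -0.53 from 20, -0.67 from 100, -0.19 without called peaks and -1.21 centred on all peaks. That centring took off the median of peaks of any mean count (0.60), whereas peaks of 50 or more had 0.06 over the series. The CMV shift over the rest (-0.43) was -0.68 with no minimum, -0.49 from 20, -0.065 without called peaks and -0.37 as a mean weighted by 1/SE squared. Chosen after the data were seen, other chromosomes gave -0.69 and the rest of chromosome 5 up to the CGRP edge gave -0.51. Below 0 in the CMV comparison were 63.2% with no minimum, 69.4% from 20, 89.5% from 100, 67.1% without called peaks and 94.0% after that same centring.

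As distances from 130 Mb, distal positive, the CGRP edge (-15 Mb) moved to 1 Mb with no minimum, 2 Mb from a mean count of 20 and 2 Mb with squared deviations. The CMV edge (-32 Mb) moved to -41 Mb with no minimum and -21 Mb from 100, and the joint edge (-16 Mb) to -30 Mb with no minimum and -18 Mb with squared deviations. The cause was not tested. Settings without called peaks lie nearer 0 by construction.

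Raised CGRP peaks (20) numbered 4 at an adjusted p under 0.01, 47 under 0.1, 0 by the second deposited test and 12 at a mean count of 50 or more; lowered ones (3) numbered 1 by the second test and 0 at 50 or more. At an unadjusted p under 0.05 stood 175 of the 384 stronger peaks in the CGRP comparison (45.6%), not split by direction. The deposited interval left out 0 for the same number, against 3631 of 26447 peaks of that strength in the series (13.7%). The block was chosen on this contrast, so nothing is read from that difference. Counts at an adjusted p under 0.01 or 0.1 have no share over all peaks beside them. Raised CMV peaks (195) numbered 124 under 0.01, 90 by the second test and 20 at 50 or more, and lowered ones (430) numbered 150 and 221 in these last settings.

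The CMV-pool density ratio of 1.00 became 1.32 among the 100000 best summits, 1.17 from a score of 5, and reversed to 0.923 over windows with at least 5 merged peaks. The CGRP-pool ratio became 1.70 and 1.52, and the mixed-pool ratio 1.45 and 1.29, among the best summits and over such windows. Leaving out single libraries was not run, since values per library were not analysed here. No paired analysis was possible because the comparison tables carry no library or replicate. At the median SE of 0.20, a CGRP change of a single strong peak as small as the block's is seldom called.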
